A study of Mus musculus with 6 samples.

Results

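The 45 imprinted genes described here were taken by symbol, from a written list of known mouse imprinted genes, out of a table of 53819 gene symbols counted in 6 mRNA sequencing libraries. All 45 symbols were in the table. The libraries came from 3D gastruloids, which are embryo-like aggregates grown from stem cells, here of the mouse embryonic line E14, of which 3 were untreated and 3 had received the synthetic glucocorticoid budesonide for 80 h. One stem cell line stood behind every library. The labels name no vehicle for the untreated aggregates and do not say that both groups were collected at the same age. Nor do they say that the replicates of a group were grown apart, so a p-value here speaks of the spread among 3 libraries, which could be technical. The question asked of the imprinted genes was whether their RNA levels differed between treated and untreated aggregates, and whether the genes of one parental class or one imprinted domain moved alike.

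An imprinted gene is transcribed mainly from the copy inherited from one parent. Most such genes lie in clusters, called domains, around an imprinting control region that is methylated on one parental copy in the germ line and keeps that mark after fertilisation with the help of the zinc finger protein ZFP57, its cofactor TRIM28 and the maintenance methyltransferase DNMT1. Paternally expressed genes of growing tissues such as Igf2, Peg3 and Dlk1 are mostly known as promoters of growth or as regulators of metabolism, whereas several maternally expressed genes such as Cdkn1c, Phlda2, Grb10 and Igf2r restrain it. Counts per gene carry no parental information, so whether a difference came from the active or the silent copy cannot be told from these data. In a bulk sample, fewer cells of a type and less RNA per cell cannot be told apart either.

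With budesonide 7 imprinted genes rose and 12 fell among the 38 that had enough reads for a test, and 19 did not pass. The genes that rose were Impact, Peg10, Zrsr1, Sfmbt2, Cd81, Grb10 and Igf2r, and those that fell were Peg3, Usp29, Cdkn1c, Zdbf2, Gnas, Nnat, Ndn, Rtl1, Phlda2, Kcnq1ot1, Ube3a and Meg3. A gene was called at an adjusted p under 0.05 in an edgeR quasi-likelihood test of all 17155 tested genes, with Benjamini-Hochberg adjustment over all of them, and every adjusted p below is from that fit unless another is named. Over all tested genes 28.7% were called, 15.2% of them being higher and 13.5% lower with budesonide, as shares of the genes tested. Of the tested genes that averaged 20 CPM or more (a gene's reads scaled to the effective library size) 44.7% were called, and of the 23 imprinted genes at that level 7 rose and 7 fell. DESeq2 gave 34 imprinted genes an adjusted p and called 7 higher and 8 lower, against 13.7% higher and 9.04% lower over its 14609 genes. Of all called genes 52.9% were higher, and with no scaling factors 38.6%, when 6 imprinted genes rose and 14 fell. Where 2 means are given they are mean ± SD (n = 3), untreated first and budesonide second. The median log2 fold change (budesonide over untreated) was -0.13 for the 38 imprinted genes and -0.02 for all tested genes.

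Of 22 tested paternally expressed genes 4 rose and 7 fell, with a median log2 fold change of -0.23. Of 16 tested maternally expressed genes 3 rose and 5 fell, with a median of -0.11. In each class 50% of the tested genes were called, against 28.7% of all tested genes and 44.7% of those averaging 20 CPM or more. A difference between the parental classes was not tested. Of the 45 genes 13 are imprinted only in some tissues (placenta or brain) or for some of their transcripts, and their allelic state in gastruloids was not measured. Among the 26 tested genes without that restriction 4 rose and 10 fell (53.8% called), at a median of -0.28. The 45 genes together gave a summed level of 4071 to 4216 CPM in the untreated and 3635 to 3834 CPM in the budesonide libraries, and the groups did not overlap. The maternally expressed genes alone summed to 2095 to 2170.4 CPM in the untreated and 1975 to 2138 CPM in the budesonide libraries, which overlapped, and the paternally expressed genes to 1976 to 2045 CPM in the untreated and 1661 to 1711 CPM in the budesonide libraries. Most of the net difference in the total and in the paternal sum was Peg3, at 583 ± 10.7 and 281 ± 22 CPM. Other paternally expressed genes moved both ways, such as Zdbf2 (303 ± 10.6 and 175 ± 4.99 CPM) and Peg10 (314 ± 23.2 and 442 ± 6.37 CPM). By sign 7 of the 22 tested paternally expressed genes were higher and 15 lower. Without Peg3 the groups overlapped in both sums, so the sums do not show a fall of the paternal class as a whole.

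**Figure D1:**
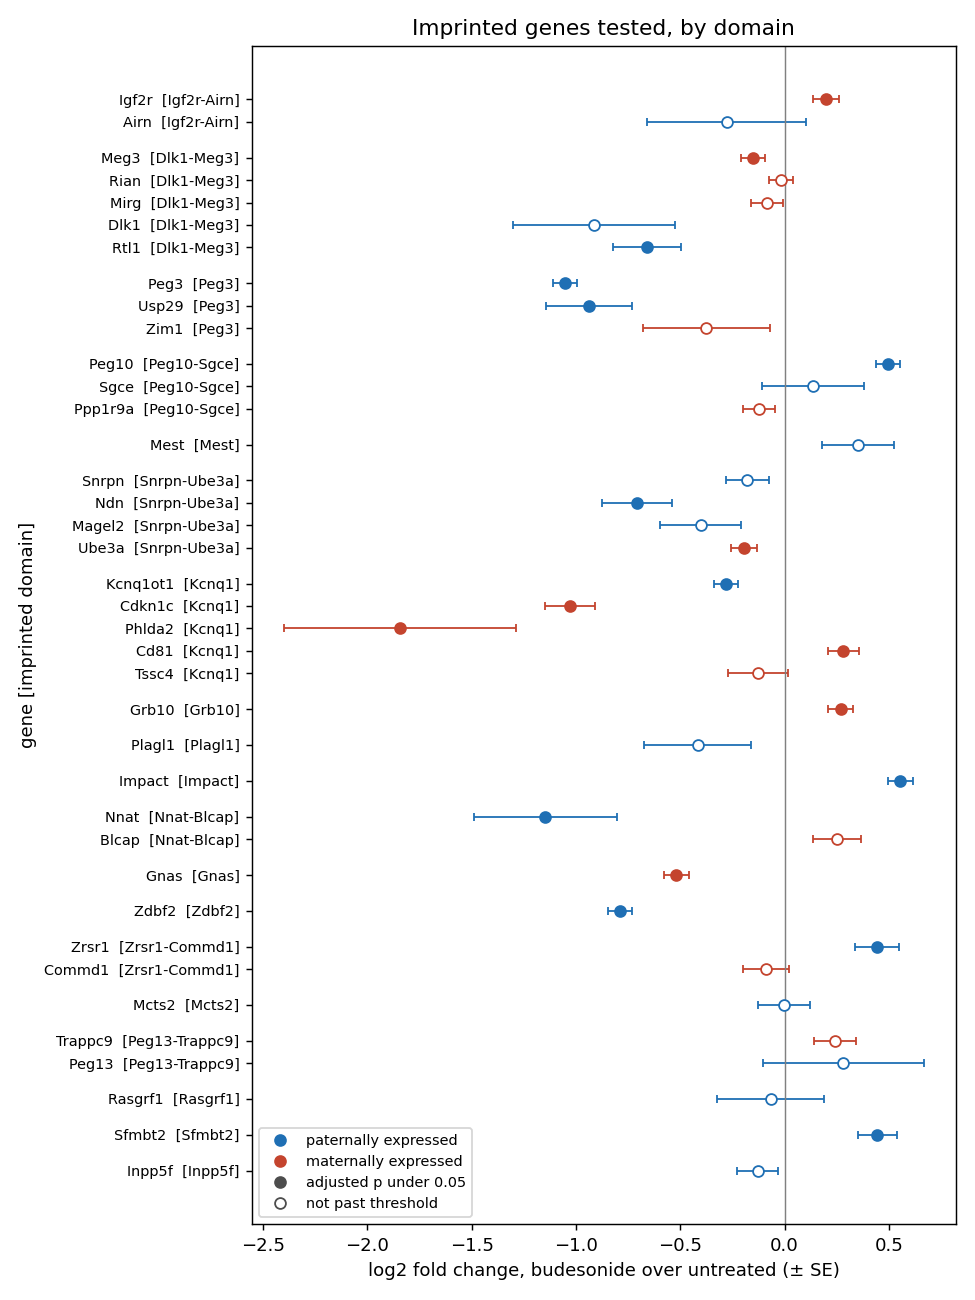
Log2 fold change of the 38 tested imprinted genes (x axis, budesonide over untreated, bars are SE), grouped by imprinted domain (y axis) and coloured by the parental copy that is expressed, with filled points for an adjusted p under 0.05. Of the filled points 7 lie to the right of 0 and 12 to the left, and both colours stand on either side.

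Read totals per library lay between 5666168 and 7476862, which puts the level of 3 reads at 0.422 to 0.552 CPM. As a measure of background, the 95th percentile of 1469 olfactory and vomeronasal receptor genes was 1.83 to 2.21 CPM per library, and 9 imprinted genes had both group means at or below its upper value. Markers of other cell types moved between the groups. Beside the counts of markers below, 15.2% of all tested genes rose and 13.5% fell. Of those averaging 20 CPM or more 44.7% were called. Mesoderm markers summed to 162 to 177 CPM in the untreated and 47.2 to 51.5 CPM in the budesonide libraries. Most of the untreated sum was the streak factor T, at 131, 116 and 133 CPM in the untreated libraries and 2.4, 2.21 and 3.31 CPM in the budesonide libraries. Most of the budesonide sum was Tcf15, a factor of somites and of epiblast, which rose and was at 22.7, 21.1 and 19.95 CPM in the untreated libraries and 30.9, 27.5 and 32.9 CPM in the budesonide libraries. Of the 13 mesoderm markers 6 were tested, 1 of which rose and 2 fell. Those that fell were T and Mixl1, the latter from 5.16 ± 0.894 to 0.615 ± 0.0797 CPM (adjusted p = 1.41e-08). Msgn1 had 0 reads in every budesonide library and at most 4 in an untreated one. Pluripotent cell markers summed to 2031 to 2104 CPM in the untreated and 2604 to 2855 CPM in the budesonide libraries and 10 of 12 rose while 1 fell. Of 12 trophoblast markers 7 were tested, 1 rose and 1 fell. Tfap2c rose from 18.5 ± 2.97 to 27.8 ± 3.98 CPM (adjusted p = 0.000242) and Eomes fell from 20.6 ± 2.66 to 8.02 ± 0.576 CPM (adjusted p = 6.54e-10). The trophoblast list summed to 55.3 to 70.1 CPM in the untreated and 50.6 to 59.2 CPM in the budesonide libraries. Prl3d1 had at most 1 read in a library. Of 13 extraembryonic endoderm markers 8 were tested, 1 rose and 1 fell, and by sign 1 was higher and 7 were lower. The gene that fell was Foxa2, from 11.2 ± 2.85 to 0.811 ± 0.433 CPM (adjusted p = 8.48e-14). Sox7 was not tested, with 5, 4 and 4 reads in the untreated and 0, 2 and 0 in the budesonide libraries. That list summed to 313 to 338 CPM in the untreated and 686 to 812 CPM in the budesonide libraries, mostly through Apoe, which many cell types express. Of 12 neuron markers 11 were tested, 3 rose and 5 fell, and they summed to 121 to 126 CPM in the untreated and 162 to 168 CPM in the budesonide libraries. The part of these cell type markers in the differences between imprinted genes was not tested.

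The levels of the 45 genes spanned a wide range, here compared per length as CPM per kb of annotated exon. In untreated aggregates Peg10 (47.05 CPM per kb), Snrpn (45.3) and Peg3 (43.8) stood at the top, followed by the long non-coding RNAs Meg3 (29.9) and Rian (27.5). Snrpn encodes a protein of the splicing machinery and Peg10 a protein derived from a retrotransposon. In GENCODE M21 Snrpn shares 27.3% of its exonic bases with Gm38393 and 10% with Snurf on the same strand, so some of its reads may not have been counted to it. At the other end stood Igf2 (0.0448 CPM per kb), most of whose exonic bases are shared with another annotated gene, and H19 (0.277). With budesonide Peg3 went down to 21.1 CPM per kb and Peg10 up to 66.4. Exon lengths came from GENCODE M21 rather than the annotation of the counting. They include the exons of all annotated transcripts of a gene, whether or not these were expressed, so the order is approximate.

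**Figure D2:**
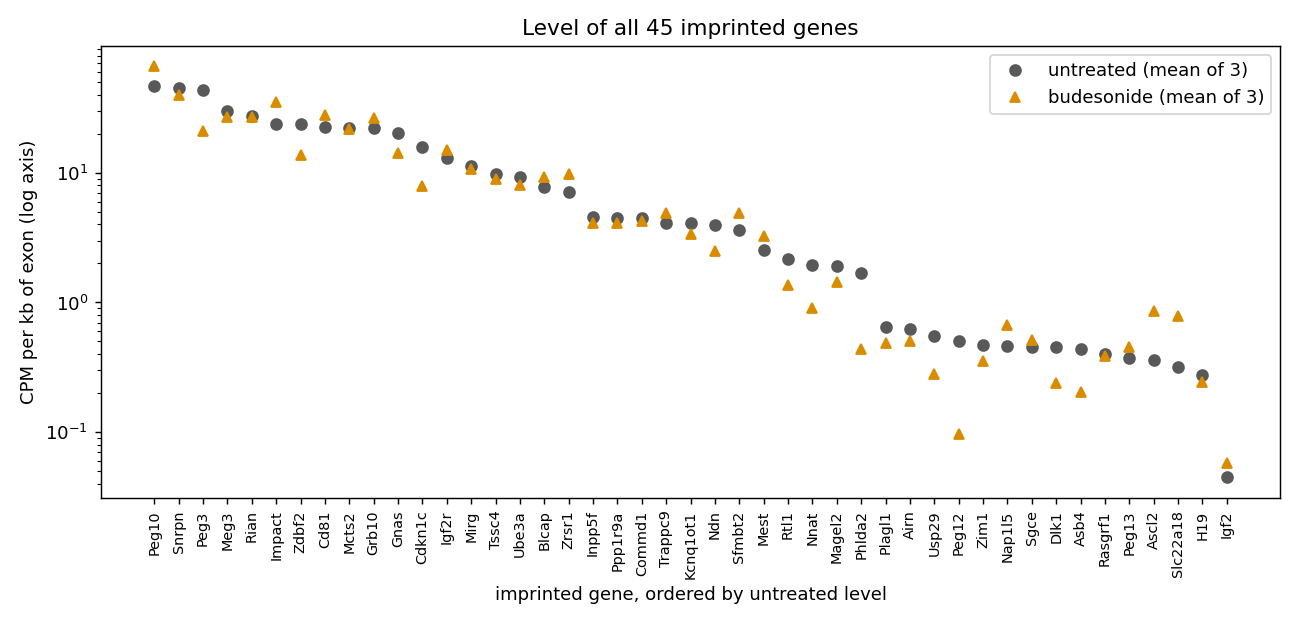
Mean level of each of the 45 imprinted genes in CPM per kb of exon (y axis, log scale) in untreated (circles) and budesonide (triangles) aggregates, ordered along the x axis by the untreated level. Peg10, Snrpn and Peg3 head the order, and Igf2 and H19 end it in the untreated libraries.

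In the Peg3 domain both tested paternally expressed genes fell. Peg3 encodes a large zinc finger protein known from maternal behaviour and growth. It was read at 579.7, 595 and 575 CPM in the untreated libraries and 274, 264 and 306 CPM in the budesonide libraries. No budesonide library came near an untreated one, and the level was 2.07-fold lower (log2 fold change -1.05 ± 0.06, SE; adjusted p = 8.67e-20). Usp29, a paternally expressed gene for a ubiquitin protease that starts next to Peg3 and is transcribed the other way, was at 8.99, 9.56 and 11.2 CPM in the untreated libraries and 5.07, 6.48 and 3.68 CPM in the budesonide libraries. Its groups did not overlap either (log2 fold change -0.94 ± 0.21, SE; adjusted p = 0.000337). Zim1, the maternally expressed zinc finger gene of the domain, was at 3.81, 3.23 and 4.4 CPM in the untreated libraries and 3.1, 3.83 and 1.65 CPM in the budesonide libraries, with overlapping groups (log2 fold change -0.38 ± 0.30, SE; adjusted p = 0.401). Exons of Usp29 overlap those of Zim3 on the other strand, and the strand setting of the counting is not given in the sources used here, so reads of such partners cannot be told apart.

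The stretch between the divergent starts of Peg3 and Usp29 is shown because both genes fell and share it. It lies at chr7:6730420-6730582 (GRCm38.p6, plus strand, RefSeq), is 163 bases long and holds 5 CG dinucleotides. Capitals would mark TGCCGC or its reverse complement GCGGCA, the letters ZFP57 is known to bind when methylated, and none stands in it.
Peg3-Usp29: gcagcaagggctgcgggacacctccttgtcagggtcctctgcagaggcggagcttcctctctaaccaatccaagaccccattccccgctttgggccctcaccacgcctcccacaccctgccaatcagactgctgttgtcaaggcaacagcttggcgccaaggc
Over the 250 bases upstream of all 32851 RefSeq starts in the table, 8.68% held TGCCGC on either strand. Of 55 such windows of the imprinted genes 8 held it, 14.5%, and 37 of the 45 genes had at least 1 window. Overlapping windows of Mest were counted separately among the 8. The windows of the imprinted genes were also richer in CG dinucleotides, which TGCCGC contains, with a median of 11 against 6 over all windows. Whether the shares differ at equal CG content was not tested. Among the genes that changed, 15 had a window, and Zdbf2 and Meg3 were the ones with a match. A match is a description of the letters and not a bound site.

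Zdbf2, a paternally expressed zinc finger gene that is active in the pluripotent epiblast and later in the hypothalamus, was at 298, 295 and 315 CPM in the untreated libraries and 178, 178 and 169.5 CPM in the budesonide libraries. The budesonide libraries lay well below the untreated ones and close together (log2 fold change -0.79 ± 0.06, SE; adjusted p = 2.64e-15), a 1.73-fold lower level. RefSeq lists 2 starts for Zdbf2. The 250 bases before the upstream start, at chr1:63200108-63200357 (GRCm38.p6, plus strand), are shown because they hold TGCCGC in either orientation 3 times, in capitals. The window of the downstream start held none.
Zdbf2: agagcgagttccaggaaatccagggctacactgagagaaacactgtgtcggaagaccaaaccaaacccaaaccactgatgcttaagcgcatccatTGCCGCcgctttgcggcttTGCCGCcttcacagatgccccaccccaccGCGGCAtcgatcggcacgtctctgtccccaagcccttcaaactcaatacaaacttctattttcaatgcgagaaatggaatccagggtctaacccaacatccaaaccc

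The Dlk1-Meg3 domain is expressed in 2 parental sets. The maternal copy gives the long non-coding RNAs Meg3, Rian (a host of small nucleolar RNAs) and Mirg (a host of microRNAs), and the paternal copy gives Dlk1, a membrane protein that acts on Notch signalling, and Rtl1, a retrotransposon-derived placental gene. Meg3 was at 579, 514 and 528 CPM in the untreated libraries and 519, 459.9 and 481 CPM in the budesonide libraries. The lowest untreated library lay within the range of the budesonide libraries, and the difference was small (log2 fold change -0.15 ± 0.06, SE; adjusted p = 0.0409). That call was lost in DESeq2 (adjusted p = 0.212), with RLE size factors (0.0539), with the filter at 1 CPM (0.0717), under limma (run on the normalized table) (0.157) and without untreated replicate 1 (0.293), 2 (0.052) or 3 (0.0816) or budesonide replicate 2 (0.221) or 3 (0.11). Rian was at 469, 504 and 529.9 CPM in the untreated libraries and 534, 501 and 449.7 CPM in the budesonide libraries, and the groups lay over each other (log2 fold change -0.02 ± 0.06, SE; adjusted p = 0.877). Mirg, at 83.5, 79.02 and 85.6 CPM in the untreated libraries and 85.5, 69.5 and 79.1 CPM in the budesonide libraries, also overlapped (log2 fold change -0.08 ± 0.08, SE; adjusted p = 0.458).

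Rtl1 fell. It was at 14.2, 13.4 and 13.5 CPM in the untreated libraries and 8.17, 8.39 and 9.56 CPM in the budesonide libraries, without overlap (log2 fold change -0.66 ± 0.16, SE; adjusted p = 0.0012). Dlk1 was low, with 15, 17 and 19 reads in the untreated and 10, 9 and 7 in the budesonide libraries, and it missed the threshold (log2 fold change -0.91 ± 0.39, SE; adjusted p = 0.0732), although every budesonide value lay below every untreated one. It passed with no scaling factors (adjusted p = 0.0481). The reads of Rtl1 per read of Meg3, a ratio that does not depend on library scaling, were 0.0245, 0.026 and 0.0256 in the untreated and 0.0157, 0.0182 and 0.0199 in the budesonide libraries, without overlap. An exact permutation test of 3 against 3 libraries cannot go below p = 0.1, and this ratio gave that value, 2-sided (0.18 adjusted over 9 such pairs).

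RefSeq lists 2 starts for Meg3. The 250 bases before the upstream start, at chr12:109540746-109540995 (GRCm38.p6, plus strand), are shown because they hold 1 GCGGCA, in capitals, and the window of the downstream start held none.
Meg3: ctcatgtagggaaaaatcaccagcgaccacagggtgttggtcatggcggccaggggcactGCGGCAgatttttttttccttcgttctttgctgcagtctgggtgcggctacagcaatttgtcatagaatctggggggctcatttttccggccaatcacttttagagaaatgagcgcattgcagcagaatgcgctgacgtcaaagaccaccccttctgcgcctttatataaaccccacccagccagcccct
Opposite Rtl1 lie 6 microRNA hairpins on the maternally expressed strand, with 11 mature forms in RefSeq, each of which is fully complementary to an annotated Rtl1 transcript. One mature form of each is shown, because such pairing is known to cut Rtl1 RNA and because antisense reads of their precursor could be counted with Rtl1. The libraries did not measure mature microRNAs. Capitals mark the seed, bases 2 to 8, and none of the 11 forms shared a seed with another. From miR-431-5p at chr12:109590459-109590479 to miR-136-5p at chr12:109595331-109595352 (GRCm38.p6, plus strand) they read as follows.
mmu-miR-431-5p: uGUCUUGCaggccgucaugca
mmu-miR-433-3p: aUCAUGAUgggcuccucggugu
mmu-miR-127-3p: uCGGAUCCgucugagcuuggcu
mmu-miR-434-3p: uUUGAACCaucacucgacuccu
mmu-miR-432: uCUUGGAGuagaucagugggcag
mmu-miR-136-5p: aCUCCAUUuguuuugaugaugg

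The Kcnq1 domain changed in 4 of its 5 tested genes, 3 lower and 1 higher, against 28.7% of all tested genes. Kcnq1ot1, the paternally expressed antisense RNA that silences its neighbours in cis, was at 373, 374 and 399.9 CPM in the untreated libraries and 341, 297 and 306 CPM in the budesonide libraries. All budesonide values lay below the untreated ones, and the fall was modest (log2 fold change -0.28 ± 0.06, SE; adjusted p = 0.00015). Cdkn1c, the maternally expressed inhibitor of cyclin-dependent kinases p57, was at 35.7, 30.4 and 31.7 CPM in the untreated libraries and 15.8, 14.7 and 17.6 CPM in the budesonide libraries, a 2.04-fold lower level (log2 fold change -1.03 ± 0.12, SE; adjusted p = 1.41e-09). An annotated antisense transcript covers 30.7% of the exonic bases of Cdkn1c in GENCODE M21. Cd81, a tetraspanin that is imprinted in placenta, rose from 71.04, 59.9 and 66.1 to 76.4, 79.5 and 84.02 CPM (log2 fold change 0.28 ± 0.08, SE; adjusted p = 0.00344), a call that leaving out untreated replicate 2 ended (adjusted p = 0.0629).

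Phlda2, a maternally expressed growth inhibitor of the placenta, had 13, 15 and 10 reads in the untreated and 8, 1 and 1 in the budesonide libraries. It passed (log2 fold change -1.84 ± 0.55, SE; adjusted p = 0.00888), but both group means lie within the background of receptor genes. DESeq2 gave it no adjusted p, its log2 fold change was -3.38 without budesonide replicate 1 and -1.38 without budesonide replicate 2, and the call ended when untreated replicate 2 (adjusted p = 0.0555), budesonide replicate 2 (0.0807) or budesonide replicate 3 (0.0616) was left out. Tssc4 was at 17.96 ± 2.9 and 16.5 ± 2.92 CPM and did not pass (adjusted p = 0.564). Ascl2, a trophoblast transcription factor, had 2, 7 and 3 reads untreated and 15, 9 and 4 with budesonide, and the transporter gene Slc22a18 had 1, 7 and 3 and 9, 11 and 6, too few for a test. Reads of Kcnq1ot1 per read of Cd81 were 5.25, 6.24 and 6.05 in the untreated and 4.46, 3.73 and 3.64 in the budesonide libraries (exact permutation p = 0.1, 2-sided, the smallest possible). The direction of such a ratio depended on the partner. Cdkn1c fell by more than Kcnq1ot1 (log2 fold change -1.03 and -0.28), so reads of Kcnq1ot1 per read of Cdkn1c went up.

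In the Snrpn-Ube3a domain, the region of the Prader-Willi and Angelman syndromes in humans, 2 of 4 tested genes fell and none rose (13.5% and 15.2% of all tested genes). Ndn (necdin, a paternally expressed MAGE family protein that restrains cell cycling in neurons) was at 16.9, 15.04 and 12.3 CPM in the untreated libraries and 8.31, 7.95 and 11.2 CPM in the budesonide libraries. The highest budesonide value stood just under the lowest untreated one (log2 fold change -0.71 ± 0.17, SE; adjusted p = 0.000803). Its relative Magel2, which works in ubiquitin ligase complexes, was at 8.88 ± 1.11 and 6.69 ± 0.848 CPM, lower in mean but not past the threshold (log2 fold change -0.40 ± 0.19, SE; adjusted p = 0.119). Peg12 had 9, 11 and 7 reads in the untreated and 2, 2 and 1 in the budesonide libraries, too few for the main filter and within background. It passed as lower where the filter let it in, without a filter on low reads (log2 fold change -2.32; adjusted p = 0.0149) and at 1 CPM in 3 libraries (-2.29; adjusted p = 0.00947). Snrpn was at 119.8, 85.8 and 87.5 CPM in the untreated libraries and 84.1, 84.9 and 90.3 CPM in the budesonide libraries, untreated replicate 1 standing above all others (log2 fold change -0.18 ± 0.10, SE; adjusted p = 0.241), and it passed as lower without untreated replicate 2 (adjusted p = 0.0336).

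Ube3a encodes a ubiquitin ligase that is imprinted in neurons only. It fell slightly, from 193, 189.96 and 194 CPM to 181, 162 and 161 CPM (log2 fold change -0.20 ± 0.06, SE; adjusted p = 0.0119). It lost the call in DESeq2 (adjusted p = 0.094), under limma (run on the normalized table) (0.0624), and without untreated replicate 3 (0.0619) or budesonide replicate 2 (0.0691) or 3 (0.0703). Part of its exons lie opposite the antisense RNA Snhg14. The ratio of Snrpn to Ube3a reads overlapped between the groups (exact permutation p = 0.8, 2-sided).

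In the Peg10-Sgce domain 1 of 3 tested genes rose and none fell (15.2% and 13.5% of all tested genes). Peg10, which is needed for the placenta, was at 339.9, 296 and 305 CPM in the untreated libraries and 435, 445 and 447 CPM in the budesonide libraries, with every budesonide library above every untreated one (log2 fold change 0.50 ± 0.06, SE; adjusted p = 1.2e-09). Sgce, the gene for epsilon-sarcoglycan, is paternally expressed from a start next to that of Peg10 and was at 4.27, 5.2 and 5.03 CPM in the untreated libraries and 4.09, 5.15 and 6.99 CPM in the budesonide libraries, with overlapping groups (log2 fold change 0.14 ± 0.24, SE; adjusted p = 0.738). Ppp1r9a, the gene for neurabin, stood at 61.3, 66.8 and 67.2 CPM in the untreated libraries and 60.2, 61.1 and 58.1 CPM in the budesonide libraries (log2 fold change -0.12 ± 0.08, SE; adjusted p = 0.26). It passed as lower with no scaling factors (adjusted p = 0.0395). Peg10 reads per Ppp1r9a read were 5.55, 4.43 and 4.54 in the untreated and 7.23, 7.28 and 7.7 in the budesonide libraries, again without overlap (exact permutation p = 0.1, 2-sided). Asb4 had 18, 6 and 10 untreated and 5, 9 and 2 budesonide reads.

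Nnat and Blcap lie one inside the other. Nnat, the paternally expressed gene for neuronatin, a small membrane protein, had 23, 27 and 22 reads in the untreated and 9, 10 and 12 in the budesonide libraries, and the groups did not overlap (log2 fold change -1.15 ± 0.34, SE; adjusted p = 0.00856). DESeq2 gave adjusted p = 0.0761, and edgeR without budesonide replicate 1 gave 0.0593. Blcap, whose intron holds Nnat, was at 27.4, 23.5 and 20.3 CPM in the untreated libraries and 30.01, 27.5 and 27.03 CPM in the budesonide libraries, with overlap (log2 fold change 0.25 ± 0.12, SE; adjusted p = 0.103). It passed as higher without untreated replicate 1 (adjusted p = 0.0196). The reads of Nnat per read of Blcap were 0.128, 0.162 and 0.171 in the untreated and 0.0423, 0.0535 and 0.0816 in the budesonide libraries, the budesonide values all lower (exact permutation p = 0.1, 2-sided).

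Another nested pair is Zrsr1 and Commd1. Zrsr1, a paternally expressed retrogene for a splicing factor, lies in an intron of Commd1, which regulates copper handling and NF-kB. Zrsr1 was at 37.2, 30.5 and 28.8 CPM in the untreated libraries and 44.4, 37.7 and 49.8 CPM in the budesonide libraries. The lowest budesonide value stood just above the highest untreated one, and the gene rose (log2 fold change 0.44 ± 0.10, SE; adjusted p = 0.000827). Commd1 was at 28.4, 25.4 and 25.9 CPM in the untreated libraries and 24.2, 24.3 and 26.7 CPM in the budesonide libraries, with overlap, and did not pass (log2 fold change -0.09 ± 0.11, SE; adjusted p = 0.613). Exons of the pair overlap by 412 bases on opposite strands in GENCODE M21. The reads of Zrsr1 per read of Commd1 were 1.31, 1.2 and 1.11 in the untreated and 1.83, 1.55 and 1.87 in the budesonide libraries (exact permutation p = 0.1, 2-sided).

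Mcts2, also a retrogene in an intron of another gene (H13), was at 21.95, 18.6 and 19.8 CPM in the untreated libraries and 20.01, 20.5 and 19.7 CPM in the budesonide libraries (log2 fold change 0.00 ± 0.12, SE; adjusted p = 0.996). It has a close parent copy on another chromosome, as does Zrsr1, so their counts can share reads with it. Nap1l5, likewise a retrogene, had 6, 5 and 6 untreated and 10, 8 and 6 budesonide reads and was not tested.

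Igf2r, the maternally expressed receptor that clears IGF2 from the cell surface, was at 121, 122 and 121 CPM in the untreated libraries and 142, 135 and 141 CPM in the budesonide libraries. The 3 untreated values were nearly equal and all budesonide values lay above them (log2 fold change 0.20 ± 0.06, SE; adjusted p = 0.014), but the call was lost under upper quartile scaling (adjusted p = 0.0617), when scaling factors were left out (0.137), when all genes with reads were kept (0.134), and without untreated replicate 2 (0.052) or budesonide replicate 1 (0.0665). Airn, the antisense RNA that silences the paternal Igf2r copy, stayed near background with 2.26 ± 0.667 and 1.82 ± 0.463 CPM (log2 fold change -0.28 ± 0.38, SE; adjusted p = 0.646). The ligand gene Igf2 had 0, 1 and 4 reads untreated and 1, 2 and 3 with budesonide. H19, the maternally expressed RNA that shares its enhancers, had 1, 9 and 4 and 5, 5 and 2. A difference in this pair was not detectable from these reads. In GENCODE M21 62.8% of the exonic bases of Igf2 are shared on the same strand with Gm49394, which had 2, 4 and 9 reads untreated and 7, 4 and 6 with budesonide, so some reads of Igf2 may not have been counted to it.

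Grb10, an adaptor that dampens insulin and IGF receptor signalling, was at 213, 189.8 and 198 CPM in the untreated libraries and 243, 233 and 248 CPM in the budesonide libraries, all budesonide values above the untreated ones (log2 fold change 0.27 ± 0.06, SE; adjusted p = 0.000383). Gnas, which encodes the stimulatory G protein alpha subunit and is imprinted for some transcripts and tissues, was at 229, 232 and 221 CPM in the untreated libraries and 163, 149 and 164 CPM in the budesonide libraries. It was lower in each budesonide library (log2 fold change -0.52 ± 0.06, SE; adjusted p = 1.54e-09). The symbol pools several imprinted and non-imprinted Gnas transcripts. Plagl1, a zinc finger factor that arrests the cell cycle, was at 5.05 ± 0.907 and 3.77 ± 0.311 CPM and did not pass (adjusted p = 0.243).

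Impact, a paternally expressed gene for an inhibitor of the amino acid sensor kinase GCN2, had the most marked rise among the 38 tested genes. It was at 124, 121 and 125 CPM in the untreated libraries and 182, 184 and 178 CPM in the budesonide libraries, a 1.47-fold higher level with replicates close together (log2 fold change 0.56 ± 0.06, SE; adjusted p = 3.96e-10). Sfmbt2, a Polycomb-associated gene imprinted in extraembryonic tissue, was at 33.1, 31.5 and 34.9 CPM in the untreated libraries and 45.5, 44.4 and 45.2 CPM in the budesonide libraries, without overlap (log2 fold change 0.44 ± 0.09, SE; adjusted p = 0.000169).

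Of the remaining genes none passed. Mest, a hydrolase-family gene of mesoderm, was at 7.77, 13.6 and 8.8 CPM in the untreated libraries and 12.1, 13.7 and 13.1 CPM in the budesonide libraries, with untreated replicate 2 as high as the budesonide libraries (log2 fold change 0.35 ± 0.17, SE; adjusted p = 0.13), and it passed as higher without that library (adjusted p = 0.00876). Its exons overlap those of Copg2 on the other strand. Trappc9, a vesicle traffic subunit gene, went from 29.9, 33.3 and 35.04 CPM to 38.04, 35.5 and 43.02 CPM with no overlap but did not pass (log2 fold change 0.24 ± 0.10, SE; adjusted p = 0.0675). It passed as higher when untreated replicate 3 (adjusted p = 0.0474) or budesonide replicate 2 (0.0259) was left out. Its nested neighbour Peg13, a non-coding RNA, was within background at 1.75 ± 0.194 and 2.15 ± 0.394 CPM. Inpp5f, a phosphoinositide phosphatase gene, was at 37.3, 39.7 and 36.1 CPM in the untreated libraries and 32.5, 38.1 and 32.7 CPM in the budesonide libraries (adjusted p = 0.363). The Ras exchange factor gene Rasgrf1 was at 4.46 ± 0.769 and 4.25 ± 0.526 CPM (adjusted p = 0.887).

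**Figure D3:**
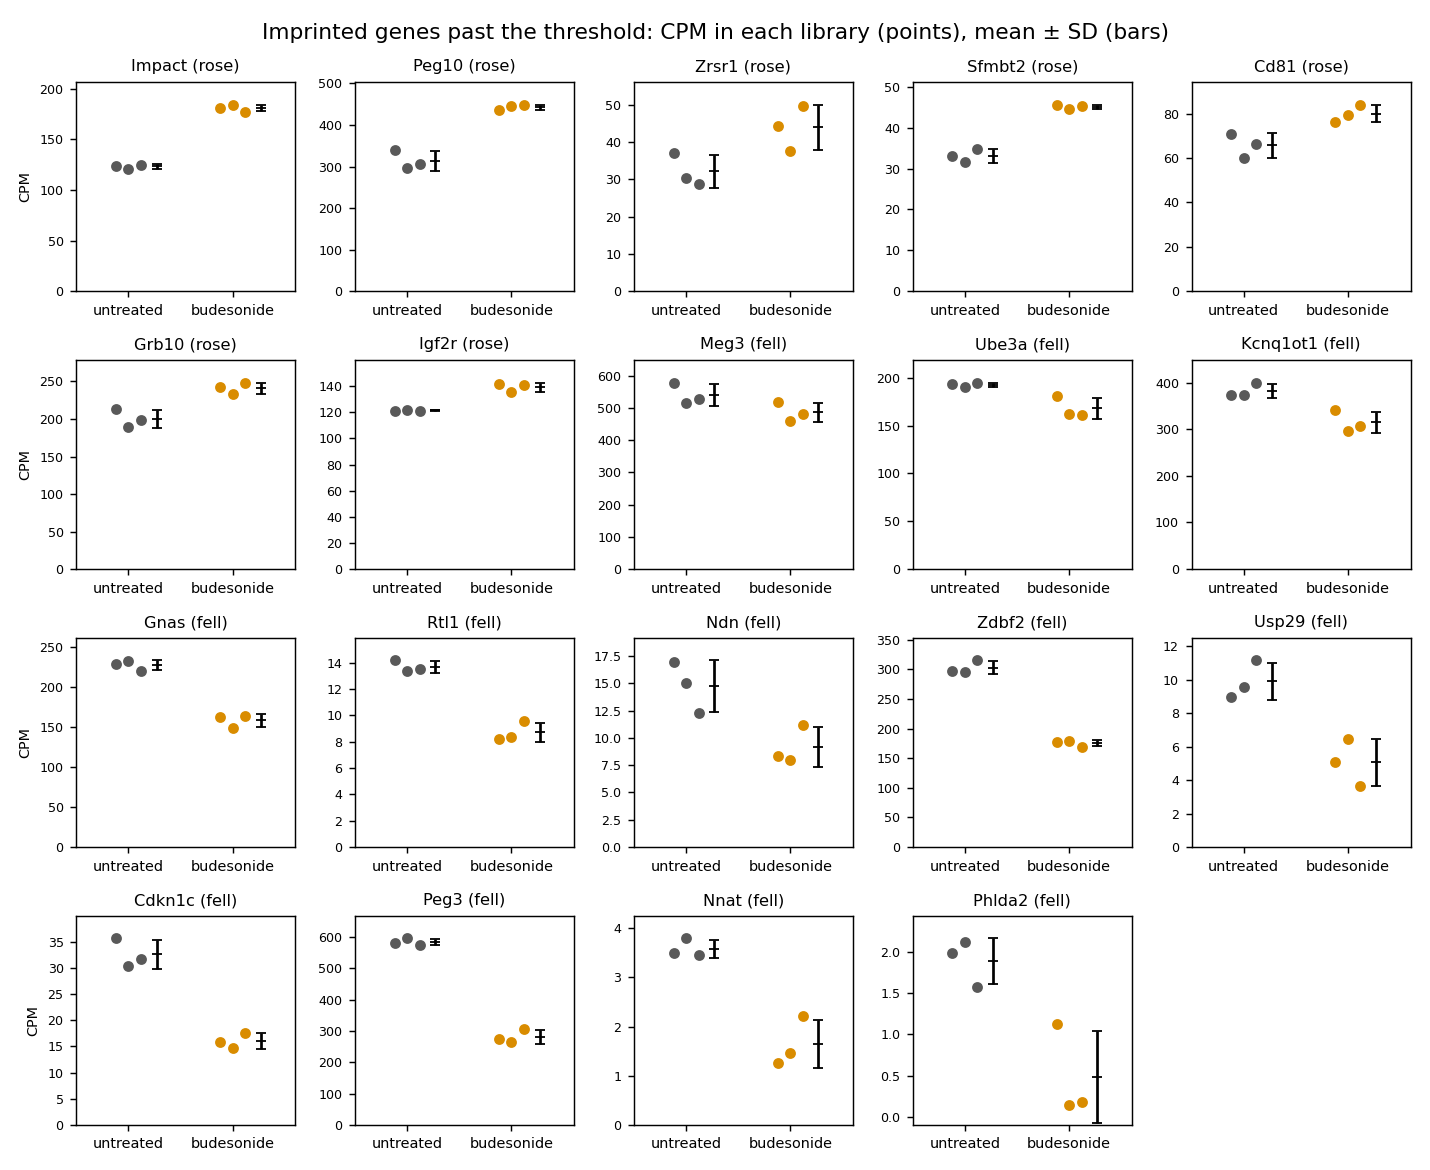
CPM in each library (points, y axis of each panel) for the 7 imprinted genes that rose and the 12 that fell, by group (x axis), with the mean ± SD (n = 3) beside the points. The groups are separate in each panel except Meg3, where an untreated library lies among the budesonide libraries.

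The 7 genes that had too few reads for a test were H19, Igf2, Peg12, Slc22a18, Ascl2, Nap1l5 and Asb4, and all had group means within the background of receptor genes. Among the 38 tested genes 22 had groups that did not overlap, against 39.6% of all tested genes and 54.7% of those averaging 20 CPM or more. The read ratio of a domain's paternally to its maternally expressed gene was compared in 9 pairs. The groups were apart in the 5 pairs given above (exact permutation p = 0.1, 2-sided; 0.18 adjusted). By the same exact test they overlapped for Airn over Igf2r (p = 0.3), Peg3 over Zim1 (p = 0.4), Snrpn over Ube3a and Peg13 over Trappc9 (p = 0.8 for both). The partners Ppp1r9a, Cd81, Blcap, Commd1, Ube3a and Trappc9 are among the 13 genes imprinted only in some tissues or for some transcripts. Their ratios therefore need not be those of a paternal to a maternal copy in gastruloids.

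Among the genes of proteins that keep imprints, Zfp57 rose strongly. Of 19 tested maintenance factors 2 rose and 1 fell (15.2% and 13.5% of all tested genes), with a median log2 fold change of -0.01. Zfp57 was at 101, 97.6 and 107 CPM in the untreated libraries and 290.1, 264 and 267 CPM in the budesonide libraries, a 2.69-fold rise (log2 fold change 1.43 ± 0.06, SE; adjusted p = 4.86e-23). The histone methyltransferase Setdb1 rose slightly, from 114 ± 7.76 to 128 ± 3.01 CPM (log2 fold change 0.17 ± 0.07, SE; adjusted p = 0.0454), a call lost in 10 of 15 alternatives, among them DESeq2 (adjusted p = 0.08) and the replicate block (0.0505). The heterochromatin protein gene Cbx3 was at 118 ± 3.54 and 98.8 ± 6.6 CPM and fell (log2 fold change -0.25 ± 0.07, SE; adjusted p = 0.00284). Zfp445, a zinc finger gene with a role like that of Zfp57, averaged 148 ± 8.34 and 146 ± 10.1 CPM (log2 fold change -0.02 ± 0.06, SE; adjusted p = 0.836), and Trim28 at 794 ± 3.48 and 819.7 ± 37.8 CPM (log2 fold change 0.04 ± 0.05, SE; adjusted p = 0.582). Dnmt1 averaged 611 ± 11.7 and 579 ± 34.9 CPM (log2 fold change -0.08 ± 0.05, SE; adjusted p = 0.326), which passed as lower with no scaling factors (adjusted p = 0.0138) or upper quartile scaling (0.0376), and its partner Uhrf1 at 323 ± 12.2 and 334 ± 1.34 CPM (log2 fold change 0.05 ± 0.06, SE; adjusted p = 0.592). Dppa3, which guards methylation in the zygote, had 5, 8 and 7 untreated and 7, 5 and 0 budesonide reads.

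Genes that write or erase methylation changed in 7 of 11 cases, 4 higher and 3 lower. Over all tested genes 28.7% changed, and 44.7% of those averaging 20 CPM or more. The 5-methylcytosine oxidase Tet1 rose from 521 ± 7.52 to 957 ± 38.8 CPM and Tet2 from 109 ± 1.35 to 168 ± 7.02 CPM, while Tet3 fell from 52.002 ± 1.34 to 21.6 ± 1.84 CPM. Among the de novo methyltransferases Dnmt3a rose from 229 ± 7.68 to 358 ± 17.3 CPM and Dnmt3b fell from 863 ± 40.96 to 572 ± 23.8 CPM, and their cofactor Dnmt3l averaged 90.9 ± 5.77 and 86.8 ± 2.28 CPM (log2 fold change -0.07 ± 0.07, SE; adjusted p = 0.539). Ctcfl, a germ cell relative of the insulator protein CTCF, averaged 5.004 ± 1.33 and 2.9 ± 0.669 CPM and fell (log2 fold change -0.81 ± 0.28, SE; adjusted p = 0.0259), a call lost in DESeq2 (adjusted p = 0.16), without untreated replicate 2 (0.21) or 3 (0.0653) and without budesonide replicate 1 (0.104) or 2 (0.0952).

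Around Igf2, which had almost no reads, 10 of 18 tested genes of IGF signalling changed, 3 higher and 7 lower (median -0.16). The share was 28.7% over all tested genes and 44.7% over those averaging 20 CPM or more. The binding protein gene Igfbp3 fell from 20.8 ± 2.93 to 7.4 ± 1.89 CPM and the kinase gene Akt1 from 45.9 ± 2.47 to 25.9 ± 2.3 CPM. Of the Igf2 mRNA-binding proteins Igf2bp3 fell from 149.7 ± 8.35 to 107 ± 5.12 CPM and Igf2bp2 rose from 70.8 ± 1.05 to 102 ± 6.32 CPM. The most abundant of them, Igf2bp1, named to complete the family after its values were seen, averaged 925 ± 13.4 and 836 ± 38.9 CPM and was lower (log2 fold change -0.15 ± 0.05, SE; adjusted p = 0.0314), a call lost in 9 of 15 alternatives, DESeq2 included (adjusted p = 0.139), and on leaving out untreated replicate 1 (0.0859), 2 (0.105) or 3 (0.114) or budesonide replicate 1 (0.0541) or 2 (0.186). Igfbp2 also rose, from 147 ± 8.2 to 201 ± 27.2 CPM, and the receptor gene Igf1r rose from 77.9 ± 4.66 to 91.5 ± 6.11 CPM (log2 fold change 0.23 ± 0.07, SE; adjusted p = 0.0128). That call was lost when scaling factors were left out (adjusted p = 0.106), when all genes with reads were kept (0.0838), without untreated replicate 2 (0.0517) or 3 (0.0634) and without budesonide replicate 1 (0.0928).

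**Figure D4:**
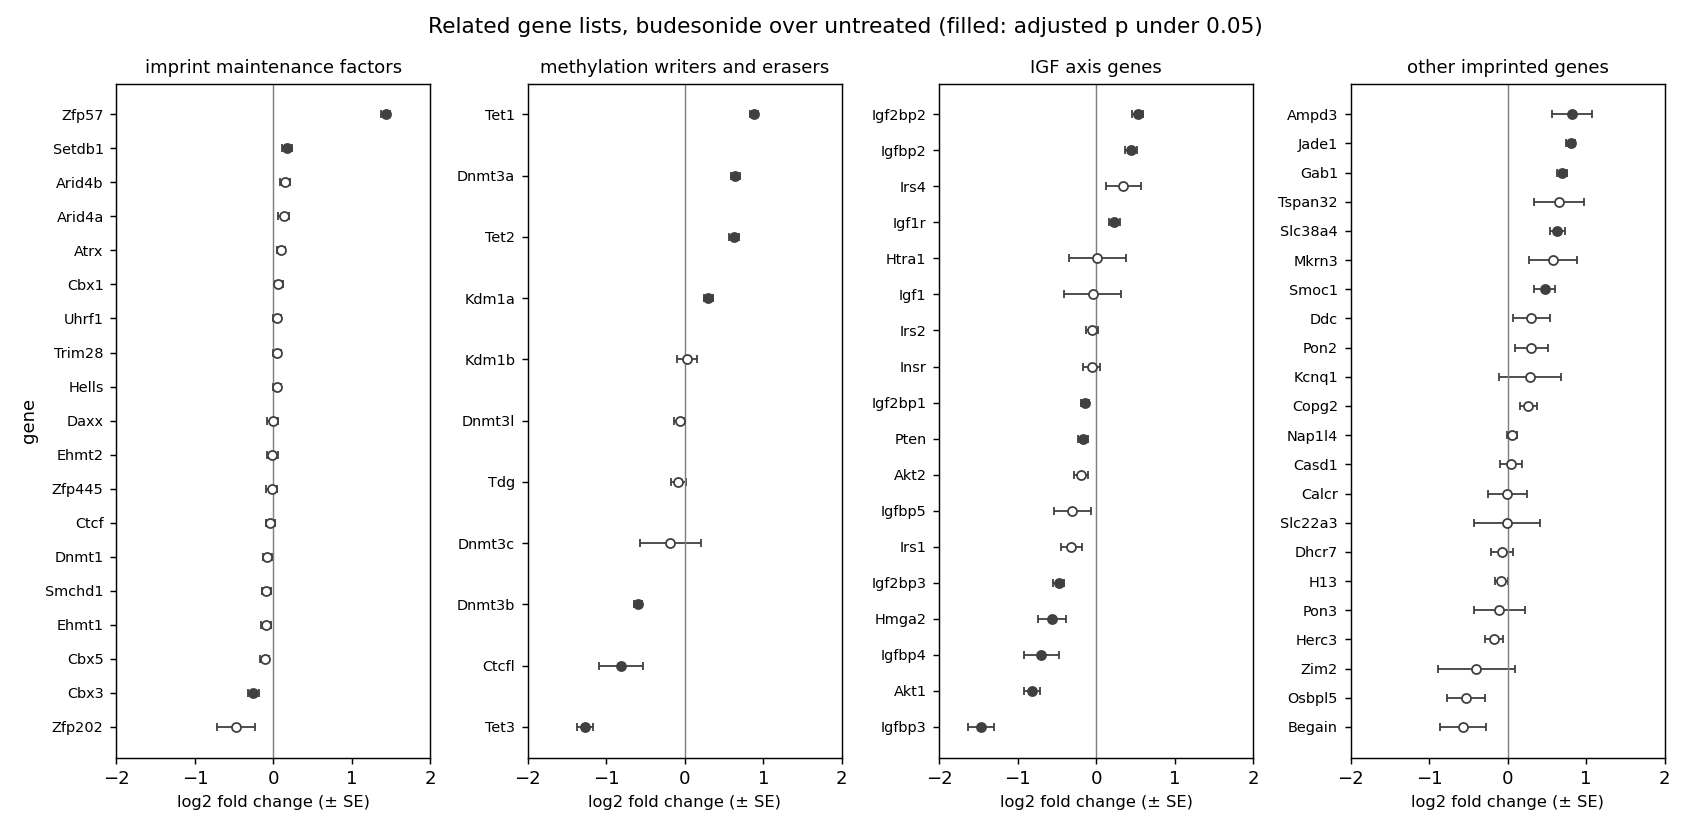
Log2 fold change (x axis, budesonide over untreated, bars are SE) of the tested genes (y axis) of 4 related lists, with filled points for an adjusted p under 0.05. Zfp57 stands apart from the other maintenance factors, and in the list of other imprinted genes the 5 filled points all lie to the right of 0.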

How the data were processed

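Per the labels' protocols, the RNA of 3 untreated and 3 budesonide samples went into a stranded mRNA kit. STAR 2.7.5c, featureCounts 2.0, cutadapt 2.5 and the build GRCm39 appear in the submitters' processing notes, without settings. The strand setting is not given in the sources used here. The authors deposited raw counts for 53819 symbols. They also deposited a normalized signal for 33560 symbols, each value being the count divided by 1 factor per library (checked to within 0.05 reads). Libraries held 5666168 to 7476862 reads, so genes near 0.552 CPM (3 reads) are measured poorly.

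Genes kept by filterByExpr (minimum count 10, total 15) were fitted with edgeR 4.0.16 in R 4.3.3 (TMM scaling, robust quasi-likelihood, group as the only term), with Benjamini-Hochberg adjustment over all 17155 genes. Standard errors are the log2 fold change over the root of F. On simulated counts for this comparison (17155 genes, mean of at least 5 CPM), edgeR found 30% of the genes altered by a factor of 1.25, 80% of those altered by 1.5 and 96% of those altered by 2, and made 9 false calls. The simulation altered only 50 genes per factor, up and down alternately, with the same spread for every gene. In the data 28.7% of the tested genes were called, so these rates need not hold for them. Alternatives were DESeq2 1.42.0, limma 3.58.1, other scalings and filters, the replicate number as a block, a threshold of 0.01 and each library left out. Members, parental classes, domains and lists were chosen with earlier results of these data known. Every listed gene was accounted for. In other lists, up to 3 risen and 3 fallen genes with the smallest adjusted p, plus 10 regulators whatever their result, were to be named. Pluripotent cell and neuron markers were given as sums and counts only, and Msgn1, Prl3d1 and Sox7 were named outside this rule. Pairs for read ratios were the best-expressed paternally and maternally expressed tested gene of a domain. Sequences are RefSeq's (GRCm38.p6) and exon lengths GENCODE M21's.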

Additional observations from a re-analysis of the deposited data

How the results depend on the processing

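Over 15 alternatives the number of imprinted genes that rose ranged from 6 to 8 and the number that fell from 8 to 14. Of the 19 called genes 13 kept their call and direction in every alternative, and the other 6 (Igf2r, Meg3, Ube3a, Phlda2, Cd81 and Nnat) lost it in at least 1. DESeq2 gave Phlda2 no adjusted p, so that gene has 14 alternatives. A further 6 genes that had been tested and had not passed did so in at least 1 alternative, as did 1 of the 7 untested genes, Peg12, and no called gene reversed. The number of maternally expressed genes that fell was 2 in DESeq2, 3 with limma on the deposited normalized counts and 3 at an adjusted p under 0.01, against 5. With each library left out in turn it was 2 to 5, the number that rose 1 to 4 and the median log2 fold change of the maternally expressed genes -0.139 to -0.0315. With upper quartile scaling that median was -0.16 and the median of all tested imprinted genes -0.18. With no scaling factors the medians were -0.21 for all, -0.31 for paternally expressed and -0.18 for maternally expressed genes, and 38.6% of all called genes were higher. DESeq2 called 1321 of all genes as lower against 2316. The cause of these shifts was not tested. The replicate number as a block left the counts at 7 risen and 12 fallen imprinted genes and called 2649 higher and 2337 lower genes in all. The correlations of same-numbered libraries' deviations were 0.0404, 0.0595 and -0.0176, so the numbers were not taken to pair the samples. Of 29 genes named from other lists 7 changed their call in at least 1 alternative. Foxa2, Mixl1, Eomes and Tfap2c were not followed over the alternatives. Depth limits the 7 untested genes and the others near background, such as Phlda2, Peg13 and Airn.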

Other observations

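A further 34 genes reported as imprinted in mouse, outside the 45, were listed for comparison, of which 22 were tested. Among these 5 rose and none fell (background 15.2% higher and 13.5% lower over all tested genes), and at an unadjusted p under 0.05 in edgeR 7 were higher and 1 lower (19.4% and 18.3% over all tested genes). DESeq2 gave 19 of them an adjusted p and called 4 higher and 0 lower (13.7% and 9.04% over its 14609 genes). The median log2 fold change was 0.16. The scaffold protein gene Gab1 was at 152, 142 and 141 CPM in the untreated libraries and 228, 245 and 231 CPM in the budesonide libraries (log2 fold change 0.69 ± 0.06, SE; adjusted p = 5.01e-13, edgeR). Jade1, a subunit gene of a histone acetyltransferase complex, was at 413, 419 and 396 CPM in the untreated libraries and 732, 658 and 755 CPM in the budesonide libraries (log2 fold change 0.80 ± 0.06, SE; adjusted p = 3.89e-16, edgeR). The amino acid transporter gene Slc38a4 was at 28.5, 33.9 and 32.5 CPM in the untreated libraries and 51.6, 47.8 and 47.6 CPM in the budesonide libraries (log2 fold change 0.63 ± 0.09, SE; adjusted p = 5.25e-07, edgeR). In all 3 the groups did not overlap. Smoc1, a matricellular protein gene, rose from 14.9 ± 1.29 to 20.6 ± 2.93 CPM and Ampd3, an AMP deaminase gene, from 3.6 ± 1.14 to 6.42 ± 0.339 CPM (edgeR adjusted p = 0.00613 and 0.00988), both named after their values were seen. Smoc1 lost its call without budesonide replicate 1 (edgeR adjusted p = 0.0937), and Ampd3 without untreated replicate 3 (edgeR, 0.0791) and in DESeq2 (0.0604).

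Gab1, Jade1, Slc38a4, Smoc1 and Sfmbt2 are known as genes whose imprint in extraembryonic tissue rests on histone methylation from the egg rather than on DNA methylation of a control region. The grouping was noticed after the values were seen, so it is given as a description with no test, and its common direction follows from that choice. In all 5 the groups did not overlap, as in 39.6% of all tested genes. Their log2 fold changes (± SE) were 0.69 ± 0.06, 0.80 ± 0.06, 0.63 ± 0.09, 0.47 ± 0.14 and 0.44 ± 0.09. Their allelic state in gastruloids was not measured.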
